A study of Mus musculus with 12 samples.

Results

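The genes described here are 5 secreted acute phase and complement proteins, Lcn2, Saa3, Cfb, Hp and Slpi, in cultured mouse pancreatic cancer cells with different p53 alleles. They belong to a set of 6 genes that was put together with these data in view, and was chosen by its low values in the cells carrying the empty vector (EV). The low EV values are therefore how the genes were chosen and not a finding. Each of the 5 genes was read by 1 probe set of its own, out of 45037 probe sets and 18193 named genes on the array. The sixth gene, C3, has no probe set in the annotation used and was not analysed here.

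RNA was measured on 12 Affymetrix mouse GeneChip arrays, 3 in each of 4 groups, and each group was 1 cell line. The mt-CCs came from a tumor with mutant Trp53 (R172H). The fl-CCs + p53 R175H were p53 null cells transfected with human mutant p53, R175H being the human counterpart of R172H, and the fl-CCs + EV were the same cells with the control vector. The fl-CCs, with a floxed Trp53 allele that the labels call null, were the untransfected parents of both. In all 4 groups the tumor of origin carried LSL-K-ras G12D/+ and a Cre gene driven by the Pdx1 promoter, which is active in pancreatic epithelium. Both transfected lines were grown with 0.6 mg/ml G418 and the other groups without it. Effects of transfection and of the drug therefore cannot be told apart where a transfected line is set against its parent. For the R175H line, that comparison cannot tell them from effects of the mutant p53 either. The arrays of a group were separate cultures of the same line, and p-values here measure the spread between cultures and not between tumors. Values are log2 RMA values, where a difference of 1 is a doubling, and those under 5 are called near background (42.9% of all values). Levels are compared between groups for the same probe set and not between genes. The summed marker levels near the end are an exception, since the brightest probe sets weigh most in them.

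The acute phase response is the change in secreted proteins that follows injury or infection. It is made mostly by the liver under cytokines such as IL-6 and IL-1, acting through STAT3, C/EBP and NFκB factors, but epithelial cells and tumors also make some of its proteins. Lcn2 (lipocalin 2) binds bacterial iron carriers and starves microbes of iron, and serum amyloid A proteins such as Saa3 bind lipids and attract leukocytes. Cfb (complement factor B) supplies the protease of the alternative complement pathway, Hp (haptoglobin) captures free hemoglobin, and Slpi inhibits neutrophil elastase at mucosal surfaces. In pancreatic cancer, lipocalin 2 is known as a product of the neoplastic ductal cells.

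Promoters were available for Lcn2, Saa3 and Slpi, and not for Cfb and Hp. Each window holds 1 match to the C/EBP pattern TTNNGCAA, printed in capitals, the only pattern of those searched that matched. The genes were chosen on values of the transfected cells, so their shared change there is in part a result of the choice. Whether the matches bear on the values was not tested. Each run covers 250 bases before to 50 bases after the RefSeq start (GRCm38.p6) and reads 5′ to 3′ on the strand of the gene.
Lcn2 (chr2:32387690-32387989, minus strand): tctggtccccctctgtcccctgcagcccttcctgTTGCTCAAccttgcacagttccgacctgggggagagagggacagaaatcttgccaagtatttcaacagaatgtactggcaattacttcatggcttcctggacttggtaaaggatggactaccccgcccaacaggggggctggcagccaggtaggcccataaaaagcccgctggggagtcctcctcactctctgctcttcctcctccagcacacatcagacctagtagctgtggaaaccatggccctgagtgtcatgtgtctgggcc
Saa3 (chr7:46715627-46715926, minus strand): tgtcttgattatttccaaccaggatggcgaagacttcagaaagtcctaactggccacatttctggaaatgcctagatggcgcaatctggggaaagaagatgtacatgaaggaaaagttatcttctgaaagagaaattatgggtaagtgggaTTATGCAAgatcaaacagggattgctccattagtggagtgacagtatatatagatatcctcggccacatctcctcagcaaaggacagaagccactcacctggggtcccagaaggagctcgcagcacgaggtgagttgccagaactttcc
Slpi (chr2:164356458-164356757, minus strand): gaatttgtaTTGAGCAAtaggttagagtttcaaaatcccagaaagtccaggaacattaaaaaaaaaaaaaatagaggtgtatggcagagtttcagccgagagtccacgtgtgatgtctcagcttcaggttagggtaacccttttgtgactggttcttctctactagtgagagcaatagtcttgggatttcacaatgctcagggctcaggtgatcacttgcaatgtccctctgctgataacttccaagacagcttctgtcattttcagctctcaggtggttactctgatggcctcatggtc
The match lies at -216 to -209 from the start in Lcn2 (read on the opposite strand), at -99 to -92 in Saa3 and at -241 to -234 in Slpi. The same pattern, searched on both strands, occurs in 10.8% of 32851 mouse promoters of the same length. No match was found in these 3 windows to the κB consensus (8.46% of promoters), to the STAT pattern TTCNNNGAA (8.3%) or to TATAAA on the strand of the gene (8.32%). A match is only a run of letters, and binding was not measured.

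Lcn2 was brightest in the mt-CCs and dimmest in the fl-CCs + EV. Its values were 11.03, 10.95 and 11.02 in mt-CCs, 9.92, 10.20 and 10.52 in fl-CCs + p53 R175H, 4.75, 5.32 and 5.25 in fl-CCs + EV, and 6.93, 8.15 and 8.0 in fl-CCs (replicates 1, 2 and 3). No array of any group overlapped another group. The group means were 11.00 ± 0.04 in mt-CCs, 10.21 ± 0.30 in fl-CCs + p53 R175H, 5.11 ± 0.31 in fl-CCs + EV and 7.70 ± 0.66 in fl-CCs (SD, n = 3 each), a span of 5.89. In EV cells 1 of the 3 arrays was near background. The parental group had the widest spread, since its replicate 1 lay well below the other arrays.

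Saa3 was highest in the fl-CCs + p53 R175H. Its values were 7.53, 7.40 and 7.10 in mt-CCs, 9.03, 9.69 and 9.78 in fl-CCs + p53 R175H, 4.98, 5.35 and 5.39 in fl-CCs + EV, and 6.45, 5.87 and 6.18 in fl-CCs. The means were 7.34 ± 0.22, 9.50 ± 0.41, 5.24 ± 0.23 and 6.17 ± 0.29 in the same order of groups (SD, n = 3 each), again with no overlap between any pair of groups. In EV cells 1 array was near background.

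Cfb differed from the other genes in that its lowest group was the mt-CCs and not the EV cells. It measured 8.25, 7.88 and 8.35 in mt-CCs (8.16 ± 0.25), 11.05, 11.30 and 11.41 in fl-CCs + p53 R175H (11.25 ± 0.18), 8.52, 8.45 and 8.63 in fl-CCs + EV (8.53 ± 0.09), and 10.47, 10.54 and 10.63 in fl-CCs (10.55 ± 0.08; SD, n = 3 each). The arrays thus split into a high pair of groups, the R175H cells and their parents, and a low pair, the EV cells and the mt-CCs. Within the low pair the means were 0.37 apart and the arrays did not overlap.

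Hp followed the order R175H, parental, mt-CCs and EV. Its values were 6.30, 6.24 and 6.38 in mt-CCs (6.31 ± 0.07), 7.76, 8.39 and 7.83 in fl-CCs + p53 R175H (7.99 ± 0.34), 5.75, 5.33 and 5.58 in fl-CCs + EV (5.55 ± 0.21), and 6.56, 6.60 and 6.73 in fl-CCs (6.63 ± 0.09; SD, n = 3 each). Every array of one group lay outside the range of the others, although mt-CCs and fl-CCs were only 0.33 apart.

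Slpi had the smallest span, 1.32, and the same order of groups as Hp. Its values were 6.56, 6.24 and 6.34 in mt-CCs (6.38 ± 0.17), 7.01, 6.83 and 7.14 in fl-CCs + p53 R175H (6.99 ± 0.16), 5.75, 5.59 and 5.69 in fl-CCs + EV (5.68 ± 0.08), and 6.38, 6.53 and 6.39 in fl-CCs (6.43 ± 0.09; SD, n = 3 each). Here the mt-CCs and fl-CCs overlapped, with means 0.06 apart. The spans of the other genes were 4.26 for Saa3, 3.09 for Cfb and 2.44 for Hp.

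**Figure D1:**
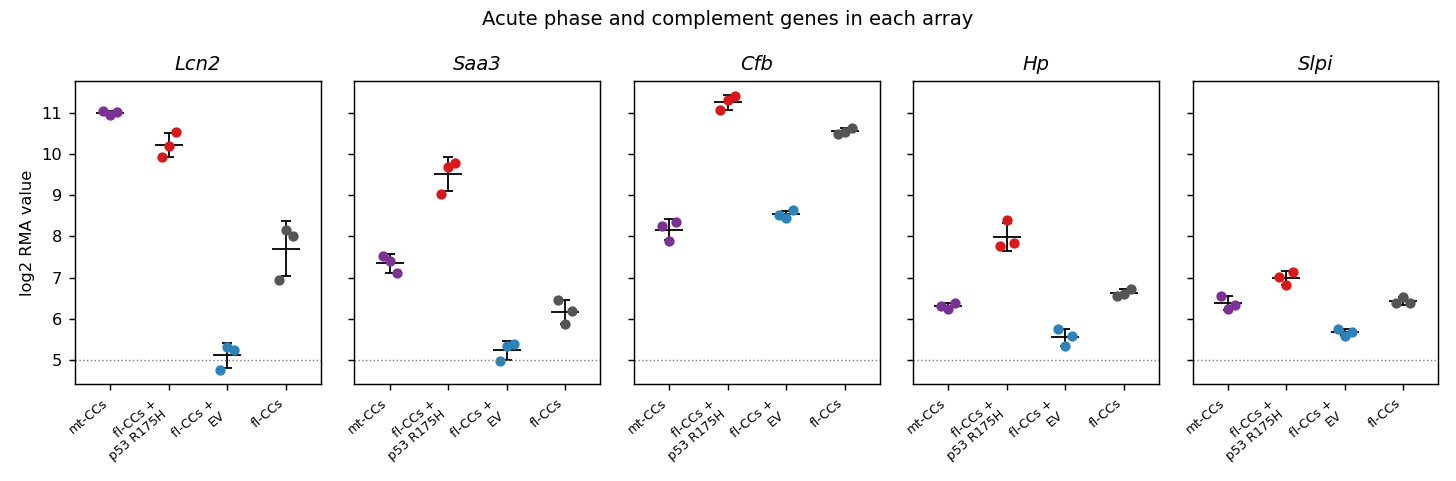
Log2 RMA value (y axis) of each gene in every array, with 1 point per array, a line at the mean and error bars of 1 SD for the 3 arrays of each group. The dotted line marks 5, under which values are called near background. For each of the 5 genes the points of fl-CCs + p53 R175H are above and those of fl-CCs + EV below the points of fl-CCs, whereas the mt-CCs lie highest for Lcn2 and lowest for Cfb.

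In 3 of the groups some replicates were the lowest or highest array for most of the genes, in part by small gaps. Slpi in fl-CCs, for example, was 6.38 in replicate 1 and 6.39 in replicate 3. The share of all probe sets with such an order was not computed. In the mt-CCs replicate 2 was the lowest array for 4 of 5 genes. In the R175H cells replicate 1 was the lowest array for 4 of 5 genes and replicate 3 the highest for 4 of 5, and in the parental cells replicate 1 was the lowest for 4 of 5. The EV cells showed no such order, with replicate 1 the lowest for 2 genes and the highest for 2, and replicate 2 the lowest for 3 and the highest for 1.

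The R175H line was compared with its untransfected parent, from which it differed in the mutant p53, the transfection and G418. This comparison cannot tell their effects apart. All 5 genes were higher in fl-CCs + p53 R175H than in fl-CCs (limma, adjusted over all 45037 probe sets, called at an adjusted p of 0.05 or less), where 7.77% of all probe sets were called higher. Saa3 rose by 3.34 ± 0.21 (difference of group means on the log2 scale ± SE), which is 10.1-fold, with an adjusted p = 1.88e-06, and ranked 11 of 45037 by size. Lcn2 rose by 2.52 ± 0.28 or 5.72-fold (adjusted p = 0.000105, rank 64). Hp rose 2.57-fold, by 1.36 ± 0.16 (adjusted p = 0.000143). The rises of Cfb and Slpi were smaller, 0.71 ± 0.13 (1.63-fold, adjusted p = 0.0036) and 0.56 ± 0.11 (1.47-fold, adjusted p = 0.00533). The arrays were separate in all 5, against 16.2% of probe sets that were separate and higher, and the median difference was 1.36, against -0.01 over all probe sets. The R175H arrays were also set against the EV arrays when the genes were chosen, so this count is not independent of the choice.

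Between the endogenous mutant and the p53 null line, the genes did not move one way. In mt-CCs against fl-CCs, 2 of the 5 were called higher, 1 lower and 2 were not called, where 15.4% of all probe sets were higher and 15.3% lower. Lcn2 was 9.88-fold higher in mt-CCs, by 3.30 ± 0.28 (adjusted p = 1.62e-06). Saa3 was 2.26-fold higher, by 1.18 ± 0.21 (adjusted p = 0.000927). Cfb was lower by 5.23-fold, with a difference of -2.39 ± 0.13 (adjusted p = 3.06e-08). Hp differed by -0.33 ± 0.16 (adjusted p = 0.146) and Slpi by -0.06 ± 0.11 (adjusted p = 0.758), neither past the threshold. The median difference of the 5 genes was -0.06, against -0.02 for all probe sets. The means compared come from untransfected arrays, but the error was estimated from all 12 arrays, and the parental arrays are those of the comparison above. The parental arrays were also set against the EV arrays in the choice, so this count is not fully independent of it. With only the mt-CCs and fl-CCs arrays in the fit, Hp was called (adjusted p = 0.043).

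The direct comparison of the lines with mutant p53 tests whether the difference from fl-CCs was of the same size in both. Relative to fl-CCs + p53 R175H, the mt-CCs had less Saa3 (-2.16 ± 0.21, 4.46-fold, adjusted p = 6.47e-06), less Cfb (-3.09 ± 0.13, 8.53-fold, adjusted p = 3.08e-09), less Hp (-1.69 ± 0.16, 3.22-fold, adjusted p = 4.05e-06) and less Slpi (-0.62 ± 0.11, 1.53-fold, adjusted p = 0.000888). Thus 4 of 5 genes were lower in mt-CCs and 1 was higher, where 16.3% of all probe sets were called lower and 16.9% higher. As the genes were chosen on a comparison that held the R175H arrays, this count is not independent of the choice either. The gene that was higher was Lcn2, by 0.79 ± 0.28 (1.73-fold, adjusted p = 0.0452). That call was lost without any 1 of the mt-CCs arrays and without R175H replicate 1 or 2, with a range of the adjusted p of 0.0388 to 0.155 over the 6 arrays of the comparison. Leaving out replicate 1 of fl-CCs, which was low for Lcn2, gave differences of 2.92 for mt-CCs and 2.14 for R175H against fl-CCs, both still called.

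**Figure D2:**
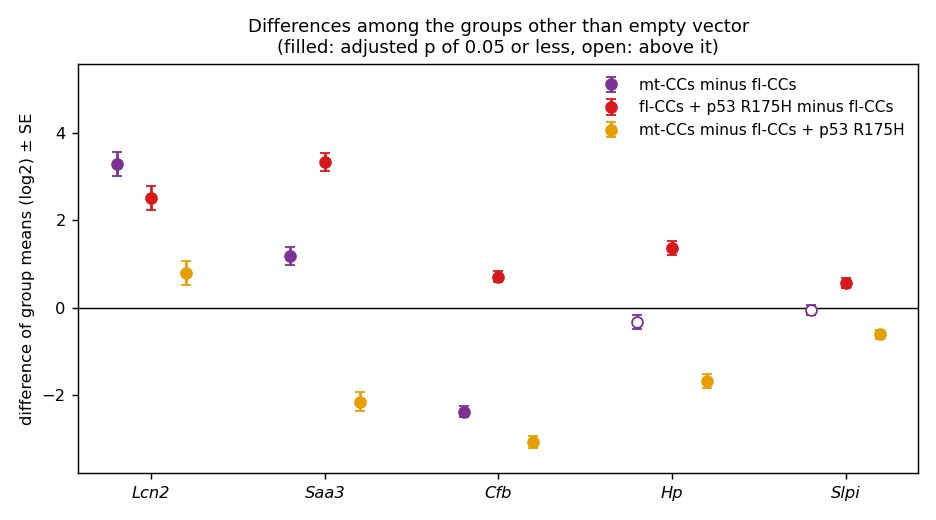
Difference of group means (y axis, log2, ± SE) for the comparisons among the groups other than EV, with n = 3 arrays a group and the SE estimated from all 12 arrays. Filled points have a limma adjusted p of 0.05 or less and open points do not. The red points of fl-CCs + p53 R175H minus fl-CCs are above 0 for all 5 genes, while the purple points of mt-CCs minus fl-CCs run from 3.30 for Lcn2 to -2.39 for Cfb.

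The EV values that set the choice of the genes are given as a description and were not tested. In fl-CCs + EV, compared with fl-CCs, Lcn2 differed by -2.59 ± 0.28 (6.01-fold lower), Cfb by -2.02 ± 0.13 (4.05-fold), Hp by -1.08 ± 0.16 (2.12-fold), Saa3 by -0.93 ± 0.21 (1.9-fold) and Slpi by -0.76 ± 0.11 (1.69-fold). All 3 EV arrays lay below all 3 parental arrays in 5 of 5 genes, an arrangement that 15.2% of all probe sets had. The corresponding differences of fl-CCs + p53 R175H from fl-CCs + EV were 5.10 ± 0.28 for Lcn2 (34.4-fold), 4.26 ± 0.21 for Saa3 (19.2-fold), 2.72 ± 0.13 for Cfb (6.61-fold), 2.44 ± 0.16 for Hp (5.43-fold) and 1.32 ± 0.11 for Slpi (2.49-fold), with 17.9% of probe sets separate and higher. The EV values of Lcn2 and Saa3 lay at the near-background level, with 1 array of each under it, so that the folds of these genes against EV, in either comparison, are measured ratios whose true size cannot be read from these arrays. For Cfb, which was above background in every array, the difference of R175H from EV joined a rise of 0.71 above the parent with an EV value lower than the parent by a difference of -2.02. In all 5 genes every EV array was below every parental array and every parental array below every R175H array, the order found in 2.58% of probe sets. The EV arrays were below those of all other groups in 4 of 5 genes (4.41% of probe sets), with Cfb the exception.

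Other genes of the acute phase response were mostly dim or not called. Of 26 measured genes of a list of 28, apart from the 5 above, 13 had means near background in every group. In R175H cells against fl-CCs 5 were higher and 0 lower by limma (6 and 0 at an unadjusted p under 0.05), beside 9.75% and 8.87% of all 18193 genes, and the median difference of the list was 0.04, against -0.01 for all genes. They included Hpx (hemopexin, which binds heme), at 7.68, 7.97 and 8.01 in fl-CCs + p53 R175H and 6.28, 6.10 and 6.70 in fl-CCs, a rise of 1.53 ± 0.24 (adjusted p = 0.00116). S100a8, a calcium-binding protein best known from neutrophils and also in the leukocyte marker list below, rose by at least 0.88 (adjusted p = 0.00162). Here "at least" sets the brighter mean against 5, where all arrays of the dimmer group are near background. Steap4, a metalloreductase, averaged 5.09 in R175H cells and 4.50 in fl-CCs, a rise of at least 0.09 (adjusted p = 0.0385). In EV cells it averaged 4.66, and it was not called between R175H and EV cells.

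The liver-type serum amyloid genes next to Saa3 did not share its change. Saa1 averaged 3.82 in mt-CCs, 3.98 in R175H cells, 3.98 in EV cells and 3.95 in fl-CCs, near background throughout. Saa2 averaged 5.05, 5.26, 5.40 and 5.45 in the same order of groups, and neither gene was called in either comparison with fl-CCs. These genes were named for their kinship with Saa3 after their values were seen.

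In mt-CCs against fl-CCs the acute phase list had 3 genes higher and 6 lower, beside 18.3% and 17.7% of all genes, with a median of -0.07 against -0.01. Of these, Orm3 among the higher and Crp among the lower were near background in both groups. Serpina3n, a protease inhibitor of the antichymotrypsin family, was higher in mt-CCs by at least 0.41 (adjusted p = 2.06e-07), and Steap4 by at least 1.29 (adjusted p = 6.35e-06). Serpina1b (an alpha-1-antitrypsin) was lower by at least 3.19 (adjusted p = 1.39e-08), as was Hpx by at least 1.36 (adjusted p = 6.12e-05). Serpina1b was near background in mt-CCs (2.95, 3.03 and 3.88) and in fl-CCs + EV (3.58, 4.02 and 4.39), but measured 8.11, 8.36 and 7.92 in fl-CCs + p53 R175H and 8.06, 8.32 and 8.19 in fl-CCs. Its R175H and parental arrays overlapped (difference -0.06, adjusted p = 0.916), which is unlike the 5 genes above. In EV cells against fl-CCs 0 genes of the list were higher and 5 were lower by limma (0 and 6 at an unadjusted p under 0.05), beside 7.84% and 7.24% of all genes, with a median of -0.15. The EV values set the choice of the 5 genes, and the lists were chosen with earlier results known. This count and the EV calls of list genes below are therefore a description.

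Among 18 measured complement components of a list of 23, 9 were near background in every group. In mt-CCs 7 were higher than in fl-CCs and 0 lower by limma (7 and 1 at an unadjusted p under 0.05), with a list median of 0.01, where 18.3% of all genes were higher and 17.7% lower. In R175H cells 4 were higher and 0 lower (4 and 0 unadjusted), with a median of 0.04, where 9.75% of all genes were higher and 8.87% lower. The largest rises in both comparisons were those of Masp1, a protease of the lectin pathway, and C1s1, a protease of the classical pathway. Masp1 measured 11.22, 11.38 and 10.96 in mt-CCs, 10.76, 10.49 and 10.55 in fl-CCs + p53 R175H, 8.76, 8.78 and 9.15 in fl-CCs + EV and 8.41, 8.61 and 8.91 in fl-CCs. It rose by 2.55 ± 0.16 in mt-CCs (adjusted p = 1.03e-07) and by 1.96 ± 0.16 in R175H cells (adjusted p = 1.15e-05), and EV and parental arrays overlapped.

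C1s1 had the same order of groups as Lcn2, with EV cells the lowest. It measured 9.81, 9.84 and 10.08 in mt-CCs, 9.74, 9.70 and 9.75 in fl-CCs + p53 R175H, 4.62, 4.70 and 4.70 in fl-CCs + EV, and 8.03, 7.84 and 8.23 in fl-CCs. It rose by 1.87 ± 0.11 in mt-CCs (adjusted p = 5.7e-08) and by 1.70 ± 0.11 in R175H cells (adjusted p = 2.19e-06), and fell by at least 3.04 in EV cells (adjusted p = 1.17e-08), all against fl-CCs. The EV call of C1s1 is a description, since the 5 genes were chosen by their EV values. C2, the classical pathway counterpart of Cfb and its neighbor on chromosome 17, averaged 4.93 in mt-CCs, 5.52 in R175H cells, 5.49 in EV cells and 5.49 in fl-CCs. The difference of C2 from fl-CCs was 0.03 in R175H cells (adjusted p = 0.942) and -0.56 in mt-CCs (adjusted p = 0.052). Between mt-CCs and R175H cells it was -0.59 (adjusted p = 0.0376), lower in mt-CCs as for Cfb. C2 was read by the brightest of its 3 probe sets, with means close to the near-background level of 5.

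Regulators of complement were called in both directions. Of 16 measured genes of a list of 18 (8 near background throughout), 1 was higher and 5 were lower in mt-CCs than in fl-CCs, while in R175H cells 2 were higher and 1 was lower (list medians -0.15 and 0.14), beside all genes, of which 18.3% were higher and 17.7% lower in mt-CCs and 9.75% higher and 8.87% lower in R175H cells. Cfi, the protease that inactivates C3b, measured 4.34, 4.06 and 3.84 in mt-CCs, 10.24, 10.77 and 10.74 in fl-CCs + p53 R175H, 10.34, 10.23 and 10.27 in fl-CCs + EV and 11.27, 11.23 and 11.45 in fl-CCs. It was lower by at least 6.32 in mt-CCs (adjusted p = 1.12e-11) and by a difference of -0.73 ± 0.15 in R175H cells (adjusted p = 0.00729). The membrane regulators Cd55 and Cd59a, which protect cells from their own complement, were lower in mt-CCs by differences of -3.14 ± 0.20 (adjusted p = 1.18e-07) and -2.20 (adjusted p = 5.27e-08), and Cd59a was higher in R175H cells by 0.77 ± 0.13 (adjusted p = 0.00184). Part of this rise of Cd59a was also present in EV cells, with means of 9.38 in R175H cells, 9.08 in EV cells and 8.61 in fl-CCs. Between R175H and EV cells Cd59a differed by 0.30 and was not called. Cr1l, another membrane regulator, was the gene that was higher in mt-CCs (0.66 ± 0.10, adjusted p = 0.000366). C4bp, which binds C4b, measured 8.15, 8.28 and 8.28 in fl-CCs + p53 R175H, a mean of 4.94 ± 0.11 in fl-CCs + EV (SD, n = 3) and 6.58, 6.66 and 6.99 in fl-CCs, a rise of 1.49 ± 0.11 in R175H cells (adjusted p = 7.62e-06).

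**Figure D3:**
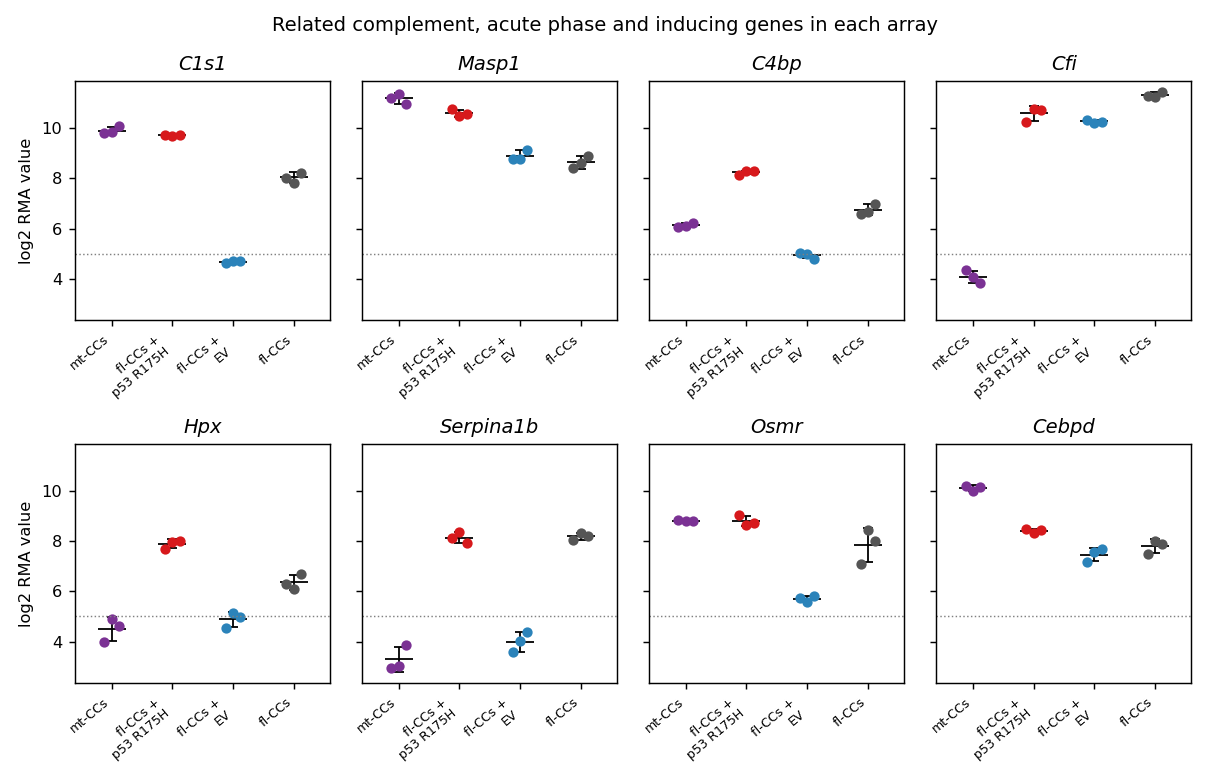
Log2 RMA value (y axis) in every array of 8 related genes, with 1 point per array and the mean ± SD of the 3 arrays of each group. The dotted line marks 5. C1s1, C4bp, Hpx, Serpina1b and Osmr are low in fl-CCs + EV, while Masp1 is not lower there than in fl-CCs and Cfi is near background only in the mt-CCs. The 8 genes were picked by hand from the named list genes, so they do not represent the lists. In EV cells against fl-CCs 0 complement components were called higher and 2 lower (18 measured). These counts were 2 and 3 for regulators and receptors of complement (16 measured) and 3 and 5 for inducing factors (38 measured). Of all genes, 7.84% were higher and 7.24% lower.

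The list of antiproteases and proteins with the WAP domain that Slpi carries held 19 measured genes of 22. In mt-CCs 1 was higher than in fl-CCs and 4 were lower, and in R175H cells 3 were higher and 1 lower (list medians -0.03 and 0.03), against the same shares of all genes. Wfdc2, a WAP protein used as a carcinoma marker, measured 12.80, 12.91 and 12.84 in mt-CCs, 6.88, 7.04 and 6.94 in fl-CCs + p53 R175H, 7.17, 7.07 and 7.46 in fl-CCs + EV and 6.83, 5.85 and 5.76 in fl-CCs. It rose by 6.71 ± 0.23 in mt-CCs (adjusted p = 3.83e-10) and by 0.81 ± 0.23 in R175H cells (adjusted p = 0.0312), where it was not higher than in EV cells. Serpinb6b, an intracellular protease inhibitor, rose by 0.90 ± 0.11 in R175H cells (adjusted p = 0.000232). Lower genes were Pglyrp1, which binds bacterial cell walls (-1.71 ± 0.23 in mt-CCs, adjusted p = 9.76e-05), Serpinb9, a granzyme B inhibitor (-0.68 in mt-CCs, adjusted p = 0.0025), and Wfdc1 (-0.62 ± 0.11 in R175H cells, adjusted p = 0.00264).

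Receptors that bind the protein products were also measured, 14 of a list of 14. Against fl-CCs 4 were higher and 1 was lower in mt-CCs, with a median of 0.10. In R175H cells 1 was higher and 0 were lower by limma (4 and 1 at an unadjusted p under 0.05), with a median of 0.12, against the same shares of all genes. Tlr4 rose by 2.45 ± 0.15 in mt-CCs (adjusted p = 1.08e-07). Tlr2, for which serum amyloid A is a ligand, rose by 1.69 ± 0.14 in mt-CCs (adjusted p = 1.29e-06) and by 0.93 ± 0.14 in R175H cells (adjusted p = 0.000893). Lrp2 (megalin), an uptake receptor for lipocalin 2, was lower in mt-CCs by at least 0.82 (adjusted p = 2.51e-06).

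Cytokines, receptors and transcription factors that induce acute phase genes made up the last list, with 38 measured of 42. In mt-CCs 16 were higher than in fl-CCs and 3 were lower. In R175H cells 3 were higher and 4 were lower (list medians 0.18 and 0.01), beside 18.3% and 17.7% of all genes in mt-CCs and 9.75% and 8.87% in R175H cells, so that the R175H count was near the background. Cebpd, which encodes C/EBPδ, measured 10.20, 9.99 and 10.15 in mt-CCs, 8.48, 8.34 and 8.44 in fl-CCs + p53 R175H, 7.17, 7.55 and 7.67 in fl-CCs + EV and 7.49, 8.02 and 7.89 in fl-CCs. It rose by 2.31 ± 0.15 in mt-CCs (adjusted p = 1.73e-07) and by 0.62 ± 0.15 in R175H cells (adjusted p = 0.0167). Il1rap, a co-receptor for IL-1, rose by at least 1.37 in mt-CCs (adjusted p = 4.68e-09).

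Osmr, the oncostatin M receptor, measured 8.83, 8.82 and 8.79 in mt-CCs, 9.05, 8.66 and 8.71 in fl-CCs + p53 R175H, 5.75, 5.57 and 5.81 in fl-CCs + EV and 7.11, 8.44 and 8.01 in fl-CCs. It rose by 0.96 ± 0.25 in both lines with mutant p53 (adjusted p = 0.0113 in mt-CCs and 0.024 in R175H cells) and was lower in EV cells than in fl-CCs (-2.14, adjusted p = 0.000182). As for C1s1, the EV call of Osmr is a description. The parental replicate 1 of Osmr was low, as it was for Lcn2. Lif, a cytokine of the IL-6 family, rose by 0.86 ± 0.16 in R175H cells (adjusted p = 0.00343), and its receptor Lifr differed there by -0.67 ± 0.13 (adjusted p = 0.00371). Rel, an NFκB subunit, differed by -0.47 ± 0.13 in R175H cells (adjusted p = 0.0323). Hnf4a, a liver and gut transcription factor, was lower in mt-CCs by a difference of -3.46 ± 0.08 (adjusted p = 2.81e-11), as was the IL-22 receptor Il22ra1 (-2.05, adjusted p = 1.17e-08). Il6 averaged between 2.54 and 2.56 in the 4 groups, near background in each.

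The genes with the most similar profile were found by Pearson's r over the 12 arrays, among 2480 genes with an SD of at least 0.5. Because the 12 arrays form 4 groups and share these cell lines, r is a description. For Lcn2 they were Cpq (0.993), Sdc2 (0.992) and Thbd (0.991). The cell surface proteoglycan Sdc2 averaged 11.09 in mt-CCs, 10.08 in fl-CCs + p53 R175H, 5.14 in fl-CCs + EV and 7.60 in fl-CCs. For Cfb they were Ambp and Pla1a (0.992 each) and Serpind1 (0.985). Ambp, which encodes a plasma protein of the liver, averaged 4.83 in mt-CCs, 10.87 in R175H cells, 6.06 in EV cells and 9.51 in fl-CCs. For Saa3 they were Pced1b (0.977), Ang (0.975) and Amigo2 (0.967), for Hp C4bp (0.977), Pdzd4 (0.972) and Fry (0.971), and for Slpi Mageh1 (0.972), Tenm4 (0.960) and Rnase4 (0.955). No gene was among the closest 3 of more than 1 of the 5.

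The changes were also set against the neighbors of each gene on its chromosome (chromosome 2 for Lcn2 and Slpi, 7 for Saa3, 17 for Cfb and 8 for Hp). Of the 3 protein-coding genes on either side of each, 29 of 30 were measured. In R175H cells against fl-CCs 1 neighbor was higher, 1 was lower and 27 were not called, with differences between -0.51 and 0.45, where 9.75% of all genes were higher and 8.87% lower. They were Slc25a25 near Lcn2 (0.45, adjusted p = 0.0333) and Nelfe beside Cfb (-0.51, adjusted p = 0.00436). In mt-CCs against fl-CCs 3 neighbors were higher and 6 were lower, with differences from -1.26 to 1.06. Of all genes, 18.3% were higher and 17.7% lower there. All 3 higher neighbors, Dnm1 (1.06), Ptges2 (0.70) and Ciz1 (0.45), lay near Lcn2, which was also higher. Of the lower ones, Dhodh (-1.26), Ist1 (-0.95) and Dhx38 (-0.51) lay near Hp, which was itself not called. The others were Saal1 (-0.58) and Sergef (-0.37) near Saa3, which was higher, and Zbtb12 (-0.53) near Cfb, which was lower. Whether these changes are linked to those of the genes they flank was not tested.

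**Figure D4:**
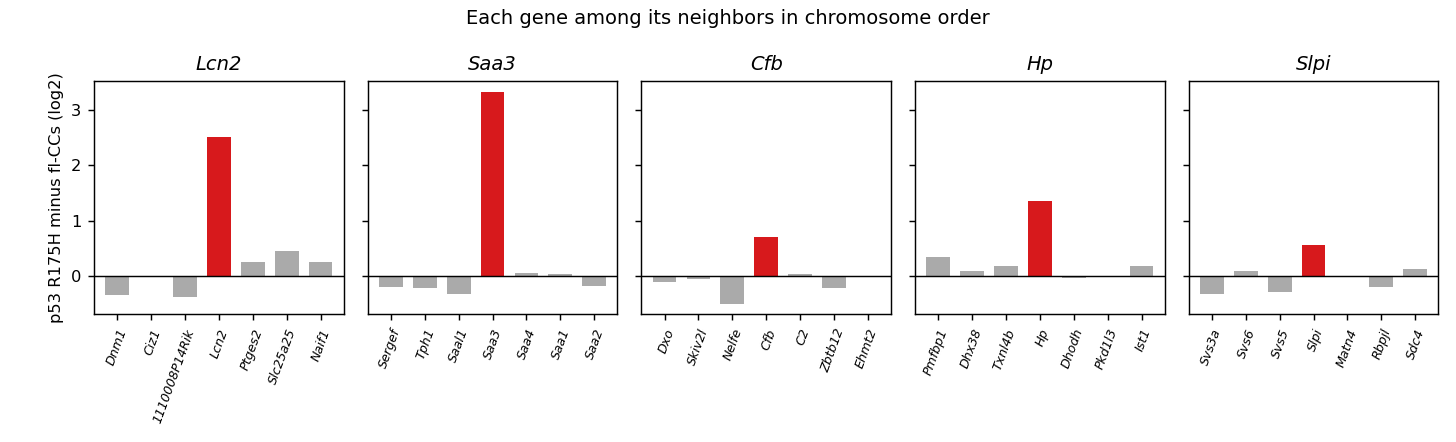
Difference of group means (y axis, log2) between fl-CCs + p53 R175H and fl-CCs for each gene (red) and the 3 protein-coding genes on either side in chromosome order (gray), without a bar where a gene was not measured (Pkd1l3). The red bars run from 0.56 for Slpi to 3.34 for Saa3, and the gray bars stay between -0.51 and 0.45.

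Marker genes of other cells were read beside these results, as the log2 of their summed linear level with the lowest and highest array of each group. Ductal and epithelial markers (10 of 12 measured) were bright throughout, at 15.04 to 15.14 in mt-CCs, 15.48 to 15.50 in R175H cells, 15.67 to 15.74 in EV cells and 15.71 to 15.77 in fl-CCs, a sum carried mostly by the keratins Krt19, Krt8 and Krt18. Of the 10, 8 were lower in mt-CCs and 3 were lower in R175H cells than in fl-CCs. For this count and those of the markers below, 18.3% of all genes were higher and 17.7% lower in mt-CCs. The shares were 9.75% and 8.87% in R175H cells, and 7.84% and 7.24% in EV cells. In mt-CCs Muc1 differed by -5.47, Krt7 by -4.45, Epcam by -2.90 and Cdh1 by -2.24, with adjusted p-values of 1.8e-11, 2.02e-11, 1.07e-09 and 1.45e-09 in that order, and Cldn7 averaged 3.66, near background. Cldn4 was near background in every group. Macrophage and neutrophil markers (15 of 15) summed to 10.35 to 10.46 in mt-CCs, 10.43 to 10.63 in R175H cells, 10.11 to 10.17 in EV cells and 10.41 to 10.45 in fl-CCs, and 8 of the 15 (Ptprc, Adgre1, Itgam, Lyz2, Tyrobp, Laptm5, Cd52 and Csf3r) were near background in every group. Of the others, Cd14 averaged 9.67 in mt-CCs, 10.02 in R175H cells, 9.57 in EV cells and 9.94 in fl-CCs. Cd68 averaged 7.66 in mt-CCs and 5.75 in fl-CCs, a rise of 1.91 (adjusted p = 1.48e-07), and Coro1a rose there by 0.50 (adjusted p = 0.0174). In R175H cells S100a8 and S100a9 were higher than in fl-CCs, S100a9 by 0.85 (adjusted p = 0.0108). Fibroblast markers (12 of 12) summed to 10.61 to 10.66 in mt-CCs, 8.63 to 8.69 in R175H cells, 8.38 to 8.47 in EV cells and 8.08 to 8.46 in fl-CCs, with 8 of 12 near background in mt-CCs and in R175H cells and 9 of 12 in EV cells and in fl-CCs. Against fl-CCs 6 were higher and 1 was lower in mt-CCs, and 2 (Col1a1 and Pdgfra) were higher in R175H cells. In mt-CCs Col3a1 rose by at least 4.50 (adjusted p = 5.2e-11) and Col1a1 by 3.15 (adjusted p = 1.47e-06). Col1a2 and Dcn, also higher there, averaged 4.67 and 4.96, near background. Pdgfra averaged 6.19 in R175H cells, 5.89 in EV cells and 4.95 in fl-CCs, and Col1a1 averaged 6.49, 6.19 and 5.59. Much of their rise over fl-CCs was thus also present in EV cells. Hepatocyte markers (9 of 10), several of which are liver plasma proteins, were lowest in the mt-CCs, as was Cfb. They summed to 8.59 to 8.77 in mt-CCs, 12.91 to 13.12 in R175H cells, up to 12.10 in EV cells and 13.01 to 13.14 in fl-CCs. Of the 9, 6 were lower in mt-CCs and 4 were lower in EV cells than in fl-CCs, and in R175H cells 2 were higher and 1 was lower. Alb, Apob and Ttr were near background in mt-CCs alone and Cyp2e1 in every group. Acinar markers (7 of 9) ranged from 7.81 to 8.30 over all arrays. The part of these markers in the results was not tested.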

How the data were processed

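Total RNA of cultured cells was labeled with biotin and hybridized by the authors to Affymetrix mouse GeneChip arrays. According to the methods, array quality was checked with the affy package and probe sets were summarized and normalized by RMA, which the submitters' processing notes name without a version. The deposited values are log2 RMA values, with an equal median of 5.59 on every array. The methods name Partek for the tests, with an adjusted step-up p of 0.05 or less and no fold limit.

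Of 45101 probe sets, 64 control probe sets were left out and 45037 were tested. The group means of all 12 arrays were fitted in R 4.3.3 with the limma functions lmFit and eBayes (version 3.58.1), with Benjamini-Hochberg adjustment over all probe sets and calls at an adjusted p of 0.05 or less. The procedure was tested on simulated arrays. Each array's depth is not defined, and the number of arrays limits the precision. Probe sets were named from the supplied platform annotation (34945 with 1 symbol, 932 with several and 9160 with none). A gene with several probe sets was represented by that of the highest mean. Correlations between replicates of a group were 0.994 to 0.9962.

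The genes and all lists were chosen with earlier results of these data known. Named list genes are the 2 largest rises and the 2 largest falls among calls in mt-CCs and in R175H cells against fl-CCs, with a group mean of 5 or more. The 3 most similar genes and the 3 neighbors on either side were named by rule. Saa1, Saa2, C2 and Il6 were chosen after their values were seen. RefSeq promoters (GRCm38.p6) were found for 3 of the 5 genes. Alternatives were other normalizations, fits, filters, a fold limit, the replicate number as a block and leaving out each array.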

Additional observations from a re-analysis of the deposited data

Results flagged for a closer look

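In 3 genes the differences of the mutant p53 lines from fl-CCs had opposite signs, and the difference between these effects, which is mt-CCs minus fl-CCs + p53 R175H, was past the threshold in the limma fit. It was -3.09 for Cfb (adjusted p = 3.08e-09), with -2.39 in mt-CCs and 0.71 in R175H cells. It was -1.69 for Hp (adjusted p = 4.05e-06), with -0.33 and 1.36, and -0.62 for Slpi (adjusted p = 0.000888), with -0.06 and 0.56, although for Hp and Slpi the difference of mt-CCs from fl-CCs was itself not called. For Slpi its sign was not settled, as the mt-CCs and fl-CCs arrays overlapped and the difference was 0.01 without mt-CCs replicate 2. The lines differ in origin, transfection and G418 as well as in the p53 allele, and these cannot be told apart.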

How the results depend on the processing

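The direction and the call of the 5 genes held in most alternatives. Of the differences of single genes between mt-CCs, R175H cells and fl-CCs, 202 values kept direction and call. Among the rest, 1 reversed, 1 gained and 6 lost the call. The 91 descriptions of EV differences kept their direction. Part of this was fixed in advance. Every EV array lay below every fl-CCs and R175H array in 5 of 5 genes, so leaving out an array could not turn an EV difference. Low EV values also set the choice of the genes. The arrays already had an equal median of 5.59 and nearly equal distributions. Quantile normalizing again or subtracting medians therefore hardly changed the values and tested little. With a required absolute log2 difference of at least 1, 3 genes were called in R175H cells against fl-CCs and 3 in mt-CCs against R175H cells, in place of 5 each, as Cfb and Slpi, and Lcn2 and Slpi, lie under it by construction. With the 2 groups alone in the fit, Hp was called in mt-CCs against fl-CCs (adjusted p = 0.043). Slpi in mt-CCs against fl-CCs ran from -0.15 to 0.01 with each array left out in turn, reversing to 0.01 without mt-CCs replicate 2 (adjusted p = 0.954), and the cause was not tested. The higher Lcn2 in mt-CCs than in R175H cells was not called in an unmoderated model (adjusted p = 0.107). Leaving out each array in turn gave 3 called genes in mt-CCs and 5 in R175H cells against fl-CCs. It gave 4 to 5 called genes in mt-CCs against R175H cells. The count of 5 of 5 genes lower in EV cells could not change, as the arrays did not overlap. For Lcn2 without replicate 1 of fl-CCs, the difference of EV from fl-CCs was -2.97.

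The replicate numbers did not pair the arrays, since deviations of arrays of the same number from their group means correlated at -0.090 to 0.058. With the replicate number as a block, 13288 probe sets were called in mt-CCs against fl-CCs (13812 without it), 5975 in R175H cells against fl-CCs (6762) and 14367 in mt-CCs against R175H cells (14911), and the numbers of genes called remained 3, 5 and 5. Another choice of probe set gave no value, as each of the 5 genes has 1. Near background, as for Lcn2 and Saa3 in EV cells, a true level cannot be read from these arrays.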
